A study of Mus musculus with 20 samples.

Results

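The expression of Apoe and 5 other genes of glial lipoproteins was followed in microglia and astrocytes sorted from mouse brain after traumatic brain injury. The genes were taken by symbol from the table of gene counts, 4 apolipoproteins (Apoe, Apoc1, Clu and Apod) and 2 receptors (Lrp1 and Scarb1), and the 6 are among 39017 identifiers in that table. Male C57BL/6J mice received lateral fluid percussion injury (FPI), in which a pulse of fluid is driven onto the exposed dura, or a sham procedure, and all of them, shams included, had a craniectomy. The ipsilateral forebrain was taken 7 days later, microglia were sorted as CD11b+ cells with intermediate CD45 and astrocytes by the surface antigen ACSA-2, and total RNA was sequenced. There were 5 libraries each of sham microglia, FPI microglia, sham astrocytes and FPI astrocytes. Ketamine with xylazine and isoflurane were given as anesthetics, and no transgene or knockout is named for any group. The CD45 gate is meant to leave out blood-derived cells, but it does not separate microglia from all macrophages at the borders of the brain, and neither sort yields pure cells.

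Lipids move between brain cells on lipoprotein particles that glia assemble locally, because the particles of blood do not cross into healthy brain. APOE is the main protein of these particles, astrocytes are known as its chief source in the healthy brain, and microglia are known to produce it when they become reactive. Particles are loaded with cholesterol and phospholipid by ABC transporters, carry CLU and APOD as further apolipoproteins, and are taken up through receptors of the LDL receptor family such as LRP1 or docked at the scavenger receptor SR-B1, the product of Scarb1. The question here was at what level each sorted cell type held the transcripts of each gene, and whether that changed with injury. Such levels are shares of the RNA in a library. The supply of a cell type in the tissue also depends on its cell number and RNA per cell. It cannot be read from these levels.

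All positions are on GRCm38. Apoe (ENSMUSG00000002985) lies on the minus strand at chr7:19696109-19699188, and Apoc1 (ENSMUSG00000040564) lies 3448 bases from it on the same strand at chr7:19689481-19692660. Clu (ENSMUSG00000022037) is at chr14:65968483-65981547 on the plus strand, and Apod (ENSMUSG00000022548) at chr16:31296192-31314808, Lrp1 (ENSMUSG00000040249) at chr10:127538161-127621148 and Scarb1 (ENSMUSG00000037936) at chr5:125277087-125341094 are on the minus strand. Every value counts reads over the exons of the whole gene. RefSeq promoter windows on GRCm38.p6 were at hand for 3 of the 6 genes, Apoe, Apod and Lrp1. The 250 bases before the start are shown for Apoe (chr7:19699189-19699438, minus strand), the ligand whose transcript rose in FPI microglia, and for its receptor Lrp1 (chr10:127621149-127621398, minus strand), which was called in neither cell type after injury. Both run 5′ to 3′ and capitals mark the motif matches.
Apoe: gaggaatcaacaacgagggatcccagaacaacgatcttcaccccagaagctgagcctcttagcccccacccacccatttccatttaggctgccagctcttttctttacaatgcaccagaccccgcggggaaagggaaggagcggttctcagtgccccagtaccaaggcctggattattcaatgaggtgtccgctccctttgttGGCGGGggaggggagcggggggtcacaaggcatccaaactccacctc
Lrp1: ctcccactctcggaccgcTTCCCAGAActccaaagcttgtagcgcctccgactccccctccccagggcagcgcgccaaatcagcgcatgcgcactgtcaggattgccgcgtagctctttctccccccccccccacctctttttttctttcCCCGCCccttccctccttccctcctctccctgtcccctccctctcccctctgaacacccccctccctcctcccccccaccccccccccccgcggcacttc
Both windows hold 1 GC box (GGCGGG, searched on both strands like every motif here), which 32.5% of the 32851 windows of this length hold, and the Lrp1 window also holds 1 match to the STAT element TTCNNNGAA, found in 7.02% of windows. No match to the interferon-stimulated response element GAAANNGAAA (2.98% of windows), the TATA box TATAAA (12.4%), the E-box CACGTG (6.02%) or the DR4 repeat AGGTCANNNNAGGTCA (0.0152%) was found in the windows of Apoe, Apod or Lrp1, and the Apod window held none of the 6 motifs. These are matches of letters and were not set against binding data.

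Libraries held from 5623349 to 13110857 counts on genes, with medians by group between 7878739 and 9300923. Levels are given in CPM, counts scaled to the TMM-normalized library totals of the 20 libraries. Calls are from edgeR's quasi-likelihood test and required both an adjusted p under 0.1 and a log2 change of more than 0.6 in either direction. The summed level of 8 microglial markers was 16670 to 26210 CPM in microglia and 103.8 to 254.8 CPM in astrocytes. The summed level of 8 astrocyte markers was 10200 to 31480 CPM in astrocytes and 229.4 to 596.9 CPM in microglia. The libraries were not alike within a group. Microglia replicates 1 to 3 carry library names of an M series and replicates 4 and 5 of a J-A series, and astrocyte replicates 4 and 5 had the lowest astrocyte marker sums of their groups. Going by the names, both cell types were sequenced from 3 animals and FPI astrocyte replicates 2 and 5 share an animal, so the libraries are not all independent. The name of FPI astrocyte replicate 5 ends in M like those of microglia, while its title and cell type label put it among astrocytes, and it held 15220 CPM of astrocyte markers. In bulk RNA, fewer cells of a type and less RNA per cell cannot be told apart.

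**Figure D1:**
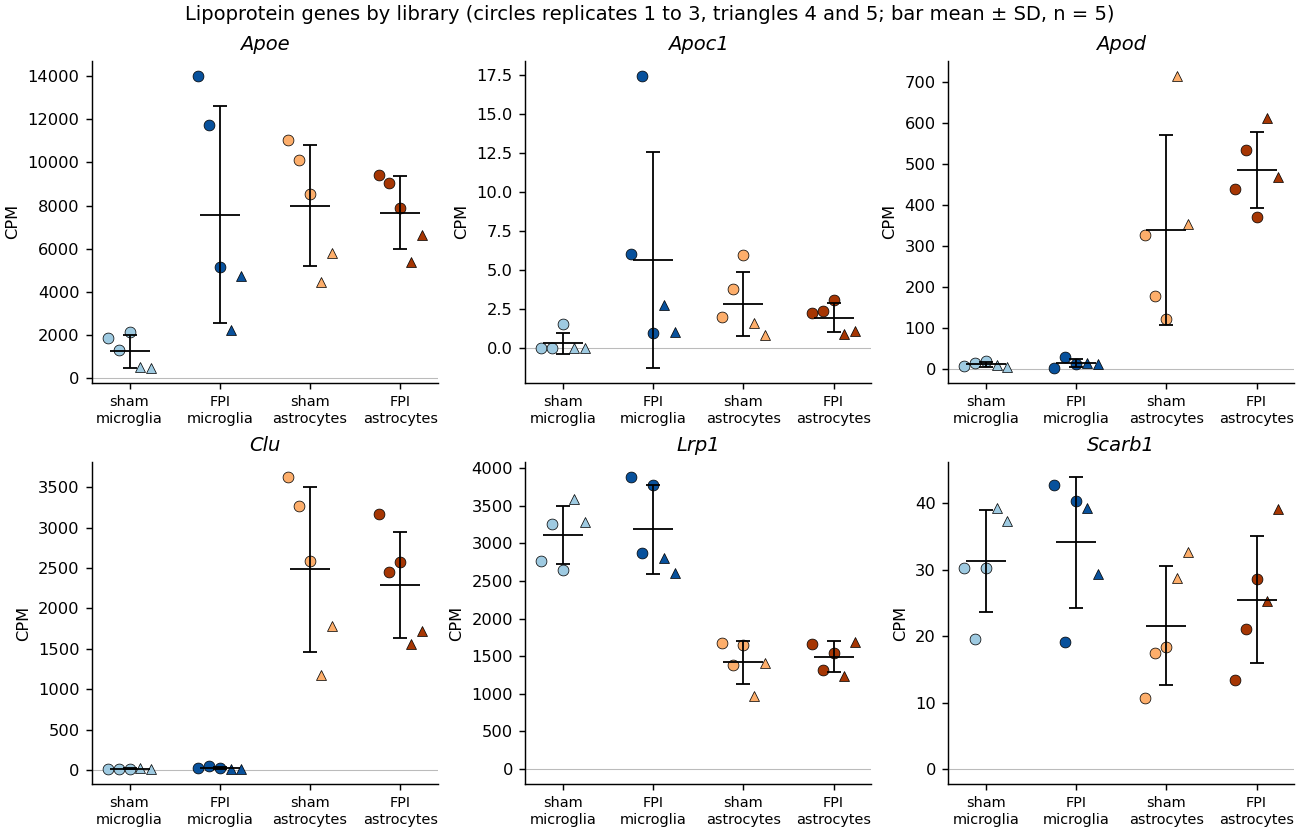
CPM of each gene (vertical axes, linear and different for each gene) in the 4 groups, with 1 symbol per library, circles for replicates 1 to 3 and triangles for replicates 4 and 5, and bars for the mean ± SD (n = 5). Apoe in FPI microglia spans 2224 to 14020 CPM, above every sham microglia library, while Clu and Apod are near 0 on the scale of astrocytes in both microglia groups.

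Microglial Apoe rose about 6-fold after injury to the level of astrocytes, in which it was called in neither direction. In sham microglia Apoe stood at 1841, 1295, 2162, 499.5 and 468.4 CPM in replicates 1 to 5 (mean 1253 ± 767.8, SD, n = 5). In FPI microglia it stood at 14020, 11730, 5143, 2224 and 4733 CPM (mean 7570 ± 5035, n = 5). The lowest FPI library lay above the highest sham library, so the groups did not overlap, as was the case for 3.43% of the 12143 genes tested. The mean was 6.04-fold higher, and in edgeR the log2 fold change was 2.60 with an SE of 0.455 (adjusted p = 0.002778), rank 67 by p. Of the 5 genes of the 6 that passed the filter on low counts in microglia, 1 was called, Apoe, against 2.35% of all genes tested. Leaving out each library in turn gave log2 fold changes of 2.24 to 2.90 with adjusted p-values of 0.000821 to 0.01309. The call was lost with robust empirical Bayes (adjusted p = 0.1198).

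In astrocytes Apoe did not move with injury by more than the spread of the libraries. It stood at 11060, 10130, 8529, 4455 and 5781 CPM in sham astrocytes (mean 7992 ± 2815, n = 5) and at 9433, 9033, 7878, 5400 and 6636 CPM in FPI astrocytes (mean 7676 ± 1676, n = 5). The groups overlapped over most of their range. The log2 fold change was -0.026 (SE 0.318, adjusted p = 0.9994, edgeR). In astrocytes all 6 genes were tested and 0 were called, by edgeR or by DESeq2. In the whole table edgeR called 0.00728%, 1 gene of 13741, with 319 genes at an unadjusted p under 0.05. DESeq2 called 39 of 22650. Gfap, with every FPI astrocyte library above every sham library, was not called by edgeR either (log2 fold change 1.98, adjusted p = 0.1512). A missing call in astrocytes thus says little about changes of moderate size.

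Set side by side, the cell types differed in Apoe in sham mice and not detectably in FPI mice. In sham mice astrocytes held 6.38 times the Apoe of microglia (log2 difference 2.67, SE 0.481, adjusted p = 5.595e-05, edgeR), with no overlap between the libraries. In FPI mice the ratio of the means was 1.01 (log2 fold change 0.020, SE 0.452, adjusted p = 0.9724), and the microglia libraries reached both above and below the astrocyte libraries. Per kilobase of exon, where genes can be compared, Apoe rose from rank 36 to rank 11 of 23690 genes in microglia and held rank 10 in both astrocyte groups. The direct test of whether the injury effect differed between the cell types gave a log2 difference, astrocytes minus microglia, of -2.65 with an SE of 0.650, which missed the threshold after adjustment in edgeR (adjusted p = 0.1657). None of the 6 genes was called in that test by edgeR, where 0.199% of 15077 genes were, with 2 of the 6 at an unadjusted p under 0.05. DESeq2 called Apoe (adjusted p = 0.009689) and Apoc1 (adjusted p = 0.07449), and over all alternatives the adjusted p of Apoe ran from 0.00831 to 0.4296. In edgeR the Apoe difference was called with a term for the series of the library names (adjusted p = 0.00831), with a replicate block (adjusted p = 0.02648), without the J-A libraries (adjusted p = 0.08005) and without FPI microglia replicate 4 (adjusted p = 0.09246), and that of Apoc1 without sham microglia replicate 3 (adjusted p = 0.04376).

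The spread of microglial Apoe followed the series of the library names in both conditions. Means of the M series were 3.65 times those of the J-A series in sham microglia and 2.96 times in FPI microglia. In a fit with both terms, the M series exceeded the J-A series by 1.70 on the log2 scale (SE 0.255, adjusted p = 0.0009066, edgeR), and 0.609% of the genes tested were called for the series. None of the other 4 genes tested was called for it by edgeR, and none reached an unadjusted p under 0.05. The effect of injury was present within each series. It was 5.83-fold within the M series (3 libraries against 3, log2 fold change 2.53, adjusted p = 0.0001223) and 7.19-fold within the J-A series (2 against 2, log2 fold change 2.90, adjusted p = 0.0003476, edgeR). Every FPI library of a series lay above every sham library of the same series.

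Macrophages at the borders of the brain also make Apoe, and their markers stood higher in the M series than in the J-A series. The markers used were Mrc1, Cd163, Pf4, Lyve1, F13a1, Cbr2, Ms4a7 and Cd209f. The summed level of these 8 was 472.3, 308.2, 457.6, 24.97 and 18.37 CPM in sham microglia. In FPI microglia it was 275.5, 200.1, 147.1, 25.11 and 59.69 CPM. Each M library lay above each J-A library of its condition. The mean sum went from 256.3 CPM in sham to 141.5 CPM in FPI, while the mean of Apoe went up. Mrc1 was the largest part of the sum, at means of 150.3 CPM in sham and 89.97 CPM in FPI. Ms4a7 alone of the 8 had a higher mean in FPI (4.75 CPM, and 3.48 CPM in sham). Within the 6 libraries of the M series, deviations of Apoe from the group mean went with those of the marker sum (Pearson's r = 0.915, permutation p = 0.0194, adjusted p = 0.0582 over 6 relations). In the same libraries Apoe also went with the astrocyte marker sum (r = 0.951, permutation p = 0.0333, adjusted p = 0.0666), so the relation is not particular to border macrophage markers. The permutations shuffled deviations across both conditions, so these p-values are approximate and may be too small. No coefficient over all 10 libraries is given, since the series form separate clusters. The part of these cells in the difference between the series was not tested. Monocyte markers, 5 genes summed, were 18.87 to 46.04 CPM in sham and 31.58 to 182.1 CPM in FPI microglia. Of these genes 2 were tested. Fn1 was called higher (log2 fold change 1.84, adjusted p = 0.009588, edgeR). Ccr2 was not called (log2 fold change 0.288, SE 0.607, adjusted p = 0.93, edgeR). Ly6c2 had no counts in either group.

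**Figure D2:**
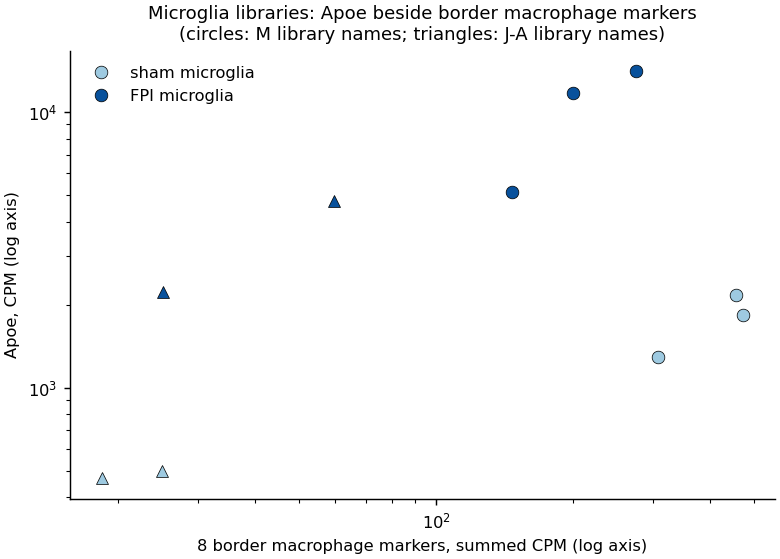
Apoe (vertical axis, CPM, log scale) against the summed CPM of 8 border macrophage markers (horizontal axis, log scale) in the 10 microglia libraries, circles for the M series and triangles for the J-A series. Every FPI library lies above every sham library on the Apoe axis. The conditions are not matched on the marker axis. In the M series the sums were 147.1 to 275.5 CPM in FPI and 308.2 to 472.3 CPM in sham. In the J-A series they were 25.11 and 59.69 CPM in FPI and 24.97 and 18.37 CPM in sham. Within each condition the M series lies up and to the right of the J-A series.

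The Apoe that astrocyte RNA would bring into the microglia libraries was estimated. From the astrocyte markers, the share of astrocyte RNA was put at 0.569% to 1.16% in sham and 0.973% to 2.49% in FPI microglia. At the astrocyte level of Apoe these shares amount to 67.2 CPM in sham (5.36% of the mean) and 125 CPM in FPI (1.65%), a difference of 57.8 CPM beside the measured 6317 CPM. Single markers gave shares from 0.0438% to 11.7%, so the estimate is rough, and the part of carry-over in the rise was not tested beyond it. The reverse share, microglial RNA in astrocytes, was at most 0.58% and amounted to at most 0.662% of astrocyte Apoe in any library.

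Apoc1, which encodes a small apolipoprotein carried on the same particles and encoded beside Apoe, appeared in FPI microglia at very low counts. Its counts were 0, 0, 14, 0 and 0 in sham microglia and 52, 140, 8, 18 and 8 in FPI microglia. Every FPI library had counts and 4 of 5 sham libraries had none, but the sham library with counts stood at 1.57 CPM, above the lowest FPI library at 0.964 CPM. The means were 0.314 ± 0.701 and 5.66 ± 6.92 CPM (SD, n = 5 each), a ratio that rests on 14 counts in 1 sham library. The gene was under the filter of the microglia fit. An exact permutation test of the means, two-sided, gave p = 0.0238, where 0.00794 is the smallest p that 5 against 5 allows. When every gene with at least 1 count was kept, edgeR gave a log2 fold change of 4.07 (adjusted p = 0.001391), and DESeq2 gave 4.16 (adjusted p = 0.219). In edgeR the adjusted p was 0.1245 with all 20 libraries in 1 fit and 0.1239 within the M series. Where leaving out 1 library let the gene pass the filter, it ran from 0.03958 to 0.1904. Its call thus depends on the fit.

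In astrocytes Apoc1 had 15, 44, 57, 16 and 7 counts in sham and 22, 19, 25, 8 and 7 counts in FPI libraries, and was not called (log2 fold change -0.52, SE 0.569, adjusted p = 0.9994, edgeR). Sham astrocytes exceeded sham microglia (log2 fold change 3.11, SE 1.08, adjusted p = 0.01663). In FPI mice the fitted difference had the opposite sign, 1.96 CPM in astrocytes and 5.66 CPM in microglia, and was not called (log2 fold change -1.52, SE 0.960, adjusted p = 0.1765). Without sham microglia replicate 3, with a term for the series, or without the J-A libraries, the FPI difference was called (adjusted p = 0.09169, 0.05248 and 0.08394). Apoe was the gene whose pattern over the 20 libraries was closest to that of Apoc1, at a root mean square distance of 1.36 on the log2 scale. This is a loose match, beside an SD of 2.42 for Apoc1 itself over these libraries. Apoc1 was at 0 in 4 of 5 sham microglia libraries, where a small count added to all libraries sets its log2 value.

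Clu, which encodes clusterin, an apolipoprotein and extracellular chaperone, was an astrocyte transcript in these data. It stood at 3627, 3265, 2583, 1174 and 1777 CPM in sham astrocytes and at 3161, 2449, 2576, 1559 and 1727 CPM in FPI astrocytes. Microglia held 17.62, 15.52, 15.35, 25.31 and 17.8 CPM in sham and 29.65, 55.29, 34.21, 21.87 and 14.99 CPM in FPI libraries. The cell types did not overlap, at a log2 difference of 7.08 (SE 0.412, adjusted p = 5.935e-12) in sham and 6.20 (SE 0.395, adjusted p = 2.81e-11, edgeR) in FPI mice. By the marker estimate, astrocyte RNA would add 20.9 CPM of Clu to sham microglia, beside a measured mean of 18.32 ± 4.07 CPM, and 37.3 CPM to FPI microglia, beside 31.2 ± 15.3 CPM. By library the estimate ran from 79.4% to 184% of the measured level, and the part of carry-over was not tested. After injury Clu was not called in microglia (log2 fold change 0.78, SE 0.269, adjusted p = 0.1926), and the measured difference of 12.88 CPM stood beside 16.4 CPM from the share. It was 1.28 within the M series (adjusted p = 0.01811) and -0.19 within the J-A series (adjusted p = 0.8849). Without FPI microglia replicate 5 the gene was called (log2 fold change 0.94, adjusted p = 0.05102), as it was when every gene with at least 1 count was kept (adjusted p = 0.0631). In astrocytes the change was -0.083 (SE 0.330, adjusted p = 0.9994).

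Apod encodes a lipocalin that binds small lipids and is known to be made by oligodendrocytes as well as astrocytes. It stood at 327.5, 177.5, 121.8, 715.8 and 354.3 CPM in sham astrocytes and at 439.3, 533.7, 372, 612.8 and 469.1 CPM in FPI astrocytes. Sham replicate 4 was the highest of all 10 and the other sham libraries lay below every FPI library. The mean was 1.43-fold higher in FPI, less than the spread of the sham libraries, and in edgeR the log2 fold change was 0.54 (SE 0.393, adjusted p = 0.9994), not a call. Without sham astrocyte replicate 4 it was 1.01, and with astrocyte replicates 4 and 5 of both groups left out 1.14 (adjusted p = 0.6489), and it was called in neither fit. Microglia held 4.545 to 20.05 CPM in sham and 2.101 to 29.83 CPM in FPI libraries, and the estimated share of astrocyte RNA comes to 25.7% and 57.2% of these means. By library it ran from 12% to 55.5% in sham and from 35.2% to 548% in FPI, so that in 1 library, FPI replicate 1, it exceeds the level measured, and the part of carry-over was not tested. Astrocytes exceeded microglia by 4.91 (SE 0.569, adjusted p = 1.763e-07) in sham and 5.14 (SE 0.575, adjusted p = 1.098e-07) on the log2 scale in FPI mice.

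Of the receptors, Lrp1, a large endocytic receptor that takes up APOE-bearing particles, was higher in microglia and moved little with injury. It stood at 2768, 3261, 2649, 3581 and 3280 CPM in sham microglia and at 3882, 2864, 3768, 2809 and 2599 CPM in FPI microglia. Astrocytes held 1677, 1389, 1643, 967.8 and 1414 CPM in sham and 1665, 1318, 1537, 1234 and 1693 CPM in FPI libraries. Every microglia library lay above every astrocyte library. The log2 difference, astrocytes over microglia, was -1.13 (SE 0.179, adjusted p = 1.209e-05) in sham and -1.10 (SE 0.179, adjusted p = 1.809e-05, edgeR) in FPI mice. The change with injury was 0.051 (SE 0.136, adjusted p = 0.9492) in microglia and 0.099 (SE 0.215, adjusted p = 0.9994) in astrocytes. Lrp1 had the smallest spread of the 6 genes within each group, with coefficients of variation of 12.5% to 20%. Per kilobase of exon its level in sham microglia, 175.4 CPM, was below that of Apoe in the same cells, 586.2 CPM.

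Scarb1, whose product SR-B1 exchanges lipid with HDL-like particles, was low in both cell types. It stood at 30.24, 19.54, 30.35, 39.27 and 37.31 CPM in sham microglia and at 42.72, 19.1, 40.35, 39.28 and 29.33 CPM in FPI microglia. Astrocytes held 10.76, 17.5, 18.39, 28.73 and 32.72 CPM in sham and 13.4, 21.03, 28.66, 25.35 and 39.14 CPM in FPI libraries. All 4 groups overlapped. The change with injury was 0.14 (SE 0.229, adjusted p = 0.9019) in microglia and 0.26 (SE 0.326, adjusted p = 0.9994) in astrocytes on the log2 scale. Astrocytes were lower than microglia by fits of -0.53 (SE 0.305, adjusted p = 0.1353) in sham and -0.42 (SE 0.304, adjusted p = 0.2347, edgeR) in FPI mice, neither of them called. Both were called once astrocyte replicates 4 and 5 were left out (log2 fold change -1.03, adjusted p = 0.008541, and -0.70, adjusted p = 0.05932). In sham mice it was also called without sham microglia replicate 2 (-0.69), sham astrocyte replicate 4 (-0.69) or replicate 5 (-0.78), and in FPI mice without FPI astrocyte replicate 5 (-0.66).

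Between the cell types 5 of the 6 genes were called in sham mice (Scarb1 was not) and 3 in FPI mice (Apod, Clu and Lrp1), in each case against 60.9% of the 15077 genes tested, so that such a call is what most genes show here. The median of all genes was 0.152 higher in astrocytes in sham and 0.126 in FPI mice on the log2 scale, which is below the size of each called difference.

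**Figure D3:**
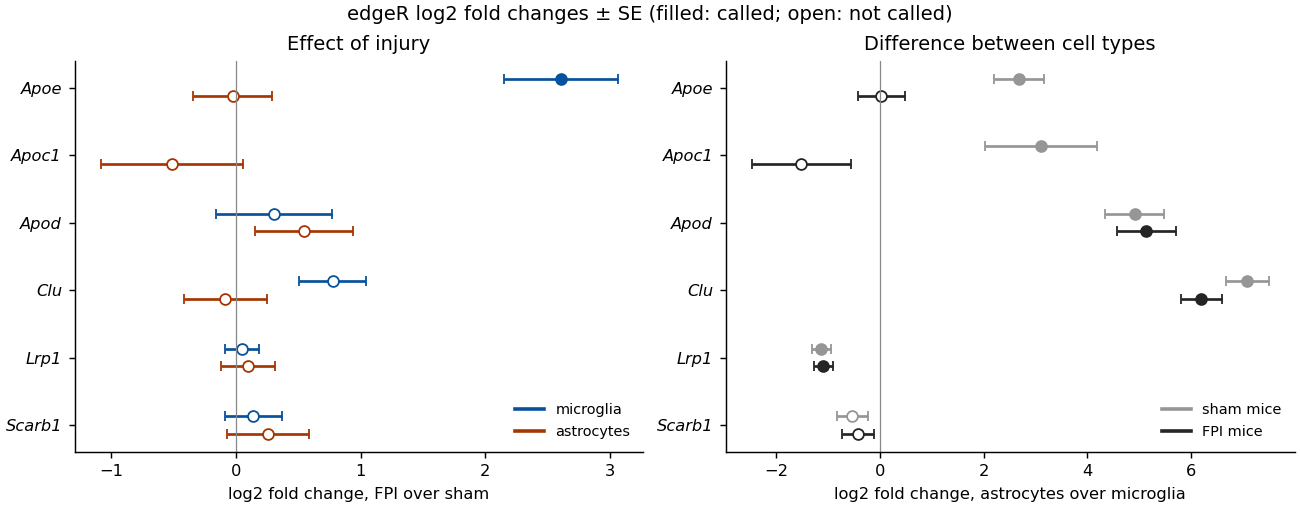
Log2 fold changes from edgeR with bars of ± 1 SE, for FPI over sham (left, blue microglia, brown astrocytes) and for astrocytes over microglia (right, grey sham mice, black FPI mice), with filled symbols for called genes. Apoe is the filled symbol on the left at 2.60 and moves from 2.67 to 0.020 on the right, while Apod, Clu and Lrp1 keep their difference between cell types, and Apoc1 in microglia was not tested.

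In the astrocyte libraries Apoe, Clu and Apod moved with markers of cell types present in the sort. Apoe and Clu followed the 8 astrocyte markers and Apod followed 8 oligodendrocyte markers, over deviations from the group mean in log2 CPM in 10 libraries. The summed astrocyte markers were 31110, 24980, 24420, 10200 and 15560 CPM in sham and 31480, 20140, 19730, 11650 and 15220 CPM in FPI astrocytes. The summed oligodendrocyte markers were 7900, 3372, 1700, 18050 and 8085 CPM in sham and 9329, 10170, 6279, 11380 and 3258 CPM in FPI astrocytes. Sham replicate 4, the library with the least astrocyte and the most oligodendrocyte marker RNA, was the lowest for Apoe and Clu and the highest for Apod.

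Apoe went with the astrocyte marker sum at Pearson's r = 0.956 (permutation p = 0.00014, adjusted p = 0.00042) and Spearman's rho = 0.952 (permutation p = 0.00014), and at r = 0.891 without the 2 libraries farthest from the median. Clu gave r = 0.971 (permutation p = 4e-05, adjusted p = 0.00024) and rho = 0.952 (permutation p = 0.00014), with r = 0.94 without the 2 farthest. Apod went with the oligodendrocyte marker sum at r = 0.895 (permutation p = 0.00154, adjusted p = 0.00231) and rho = 0.915 (permutation p = 0.0007), with r = 0.978 without the 2 farthest. Within the 6 libraries of replicates 1 to 3 the coefficients were 0.667 for Apoe (permutation p = 0.0972), 0.817 for Clu (p = 0.0556) and 0.989 for Apod (p = 0.00278). All these permutations shuffled deviations across both conditions after the group means had been removed. The p-values are therefore approximate and may be too small, most of all with 6 libraries. The adjusted values are over 6 relations, which were chosen after the levels had been seen. Expressed as a percent of the astrocyte marker sum, Apoe was 38.4% ± 3.68 in sham and 40.9% ± 6.58 in FPI astrocytes, and Clu 11.6% ± 0.901 and 12% ± 1.35 (SD, n = 5 each). Apod was 4.98% ± 1.32 of the oligodendrocyte marker sum in sham and 7.13% ± 4.08 in FPI astrocytes, the latter with 1 library, replicate 5 (the one whose name ends in M), at 14.4%. This library also held the highest summed markers of mural cells and fibroblasts, 4644 CPM, and of oligodendrocyte precursors, 1229 CPM, of both astrocyte groups. The next highest sums, 3287 and 607.5 CPM, were in sham replicate 5, and Apod exceeded 7.16% of the oligodendrocyte marker sum in no sham library. Whether RNA of oligodendrocytes or of these other cells accounts for the level of Apod was not tested.

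**Figure D4:**
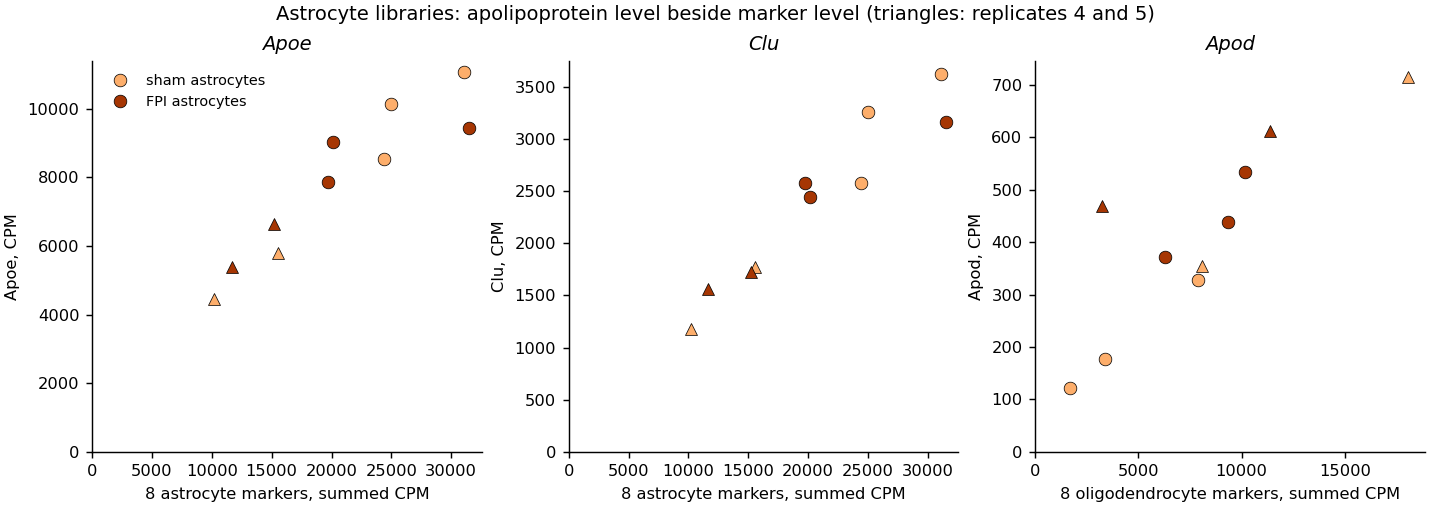
Apoe and Clu against the summed CPM of 8 astrocyte markers, and Apod against that of 8 oligodendrocyte markers, in 10 astrocyte libraries (all axes linear in CPM from 0, light sham, dark FPI, triangles replicates 4 and 5). Apoe and Clu climb with the astrocyte markers in both conditions, and Apod climbs with the oligodendrocyte markers except in FPI replicate 5, at 3258 CPM of markers and 469.1 CPM of Apod.

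Among the members themselves, 20 pairs were compared over deviations from the group mean, with the same approximate kind of permutation. Apoe and Clu rose and fell together in astrocytes (r = 0.98, permutation p adjusted over the pairs 0.0004, and rho = 0.939, adjusted p = 0.0048), with r = 0.954 without the 2 farthest libraries and 0.834 within replicates 1 to 3. Scarb1 ran against both, at r = -0.782 with Apoe (adjusted permutation p = 0.0431) and -0.80 with Clu (adjusted permutation p = 0.041), and at -0.826 and -0.782 within replicates 1 to 3. The astrocyte libraries also held RNA of other cells. Summed markers of mural cells and fibroblasts were 686.6 to 3287 CPM in sham and 301 to 4644 CPM in FPI astrocytes. Like Scarb1, they were lowest in replicate 1 and highest in replicate 5 of each group. Whether the mix of cells accounts for these relations was not tested. Apod ran against Apoe over all 10 astrocyte libraries (r = -0.647, adjusted permutation p = 0.0876) but with it within replicates 1 to 3 (r = 0.864), so the pooled relation rests on replicates 4 and 5. In microglia Apoe and Clu gave r = 0.211 (adjusted permutation p = 0.707).

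Among the other genes of the lipoprotein pathway, Abcg1 and Lpl were called in microglia after injury. The counts below stand beside 2.35% of all genes called in microglia and 1377 of 12143 at an unadjusted p under 0.05. In a list of 21 apolipoproteins and genes named after them, 7 were tested in microglia. Of these 1 was called, Apoe, and 2 had an unadjusted p under 0.05. The median log2 fold change of the 7 was 0.589, beside -0.00943 over all genes. That median is the value of Apoo alone (SE 0.649, adjusted p = 0.8393, edgeR), at 1.77 CPM in sham and 2.68 CPM in FPI microglia. In a list of 17 genes of lipidation and efflux 14 were tested and 1 was called, Abcg1, a transporter that loads sterol onto particles, with 5 at an unadjusted p under 0.05. Abca1, the transporter that starts the lipidation of APOE, fell just short of the minimum change (log2 fold change 0.594, SE 0.119, adjusted p = 0.008724, edgeR), with every FPI library above every sham library. Npc2 (0.532, adjusted p = 0.04283) and the receptor gene Sorl1 (0.540, adjusted p = 0.07346) fell short of it as well, and these 3 genes were named after their values had been seen. In a list of 14 lipases and transfer proteins 9 were tested and 1 was called, Lpl, which encodes lipoprotein lipase, and it was the 1 gene of them at an unadjusted p under 0.05. In a list of 31 lipoprotein receptors and adaptors 24 were tested and 0 were called by edgeR or DESeq2, with 3 at an unadjusted p under 0.05. DESeq2 called the same genes in each of these lists. In astrocytes 0 genes of any of these lists were called by edgeR or DESeq2, with 0, 0, 1 and 1 at an unadjusted p under 0.05 among 7 apolipoproteins, 17 efflux genes, 11 lipases and 24 receptors tested.

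Lpl stood at 9.372, 15.15, 19.83, 12.94 and 8.523 CPM in sham microglia and at 238, 177.1, 87.58, 50.22 and 57.25 CPM in FPI microglia, with no overlap (log2 fold change 3.22, SE 0.370, adjusted p = 5.643e-05, edgeR). Abcg1 stood at 189.3, 199.8, 191.3, 234.4 and 221.8 CPM in sham and at 340.8, 330.7, 231.3, 336.6 and 395.1 CPM in FPI microglia (log2 fold change 0.68, SE 0.141, adjusted p = 0.01106). FPI replicate 3 of Abcg1 lay below sham replicate 4 and the other 4 FPI libraries lay above every sham library. Of 9 listed neighbours of Apoe on chromosome 7, 5 were tested in microglia and 1 was called (2.35% of all genes were), Relb, a subunit of NF-kB, at 25.66 ± 4.03 CPM in sham and 41.77 ± 4.04 CPM in FPI (SD, n = 5 each, log2 fold change 0.72, SE 0.163, adjusted p = 0.02121).

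Many other genes of the pathway differed between the cell types, as most genes did. Of 28 receptors and adaptors tested in sham mice 10 were called higher in astrocytes and 12 higher in microglia, where 35.6% and 25.3% of all genes were. On the astrocyte side were Lrp1b, a receptor related to Lrp1, at 211 ± 135 CPM beside 0.455 ± 0.653 CPM in microglia (n = 5 each, sham), and Vldlr, a receptor for reelin and APOE, at 90.32 ± 67.5 beside 0.428 ± 0.676 CPM. On the microglial side were Trem2, a receptor that binds lipids and APOE, at 457.7 ± 28.1 CPM beside 0.137 ± 0.195 CPM, and the scavenger receptor Msr1 at 3.61 ± 2.50 CPM with 0 counts in sham astrocytes. In FPI mice the most divided receptor genes were Lrp1b and the reelin adaptor Dab1 on the astrocyte side, and Trem2 and Olr1 on the microglial side, Olr1 with 0 counts in either astrocyte group.

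Among the enzymes, Lcat, which esterifies cholesterol on particles, stood at 106.4 ± 52.5 CPM in sham astrocytes and 0.464 ± 0.376 CPM in sham microglia, and Pla2g7, a lipoprotein-associated phospholipase, at 985.6 ± 492 and 17.31 ± 12.2 CPM. Lpl, at 0.722 ± 0.619 CPM in sham astrocytes, and Pon3, at 54.28 ± 1.85 CPM in sham microglia and 2.55 ± 1.10 in sham astrocytes, were microglial. Of the transporters, Abcg4 (16.41 ± 7.86 CPM) and Abca8b (26.11 ± 21.03 CPM) were found in sham astrocytes and stood at 0.203 and 0.321 CPM in sham microglia. Abcg1 was higher in microglia (log2 fold change -1.61, SE 0.408, adjusted p = 0.001759, in sham, and -2.31, SE 0.417, adjusted p = 5.998e-05, in FPI mice, edgeR), as were Stard3 in sham mice (-2.10, SE 0.274) and Npc2 in FPI mice (-2.34, SE 0.146). In the apolipoprotein list outside the 6, Apob had 0 counts in all 10 astrocyte libraries. It stood at 2.85 ± 1.83 CPM in sham and 5.50 ± 2.86 CPM in FPI microglia. Apoo was higher in astrocytes (11.07 ± 3.30 CPM, and 1.77 ± 1.12 CPM in microglia, in sham mice).

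The genes whose levels over the 20 libraries were most like those of a member, by root mean square distance in centred log2 CPM over 15077 genes were as follows. Nearest to Apoe were Slirp at 0.642, I830012O16Rik at 0.719 and Antxr2 at 0.771. Nearest to Clu were Fam107a (0.287), Ptprz1 (0.302) and Nrcam (0.315), and nearest to Lrp1 were Itpr2 (0.188), Tnrc18 (0.193) and Zfp467 (0.193). Apod was nearest to Ptgds (0.54), then Dmwd (0.677) and Hip1r (0.739). Apoc1 was nearest to Apoe (1.36), then I830012O16Rik (1.47) and Gpnmb (1.55), all loose matches beside its own SD of 2.42. Scarb1 was nearest to Usp25 (0.332), Ell (0.342) and Gabpb2 (0.358).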

How the data were processed

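Per the labels, the measurement is RNA-seq, and the authors deposited raw gene counts for the 20 libraries, whole numbers without normalization. The submitters' processing notes name bcl2fastq, HISAT2 2.1.0 and featureCounts, and the builds mm10 and GRCm38.p6. The study's methods describe stranded total RNA libraries. Symbols were those given with the deposited counts. Positions and exon lengths were taken from GENCODE M21 (37693 of 39017 identifiers, 99.831% of counts).

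Each cell type was fitted alone, and all 20 libraries together for contrasts between cell types, in edgeR 4.0.16 (R 4.3.3) with its default filter, TMM factors and quasi-likelihood test, over all genes, with Benjamini-Hochberg adjustment. Thresholds were an adjusted p of 0.1 and a log2 fold change of 0.6 (no minimum fold for the difference between effects). The members and lists were chosen with earlier results of these data known. Genes outside the members were named where called after injury, or for the 2 largest called changes in each direction between cell types per list. Carry-over was estimated from the level of the markers of the other cell type. Correlations used deviations of log2 CPM (prior count 0.5) from group means. Their permutations were not kept within groups, so the p-values are approximate. Python 3.11.15, scipy 1.17.1 and matplotlib 3.10.9 were used.

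In a simulation of microglia on 12143 genes, 64 of 107 genes changed by 1 on the log2 scale and 81 of 93 changed by 2 were called, with 11 false calls. In astrocytes, on 13741 genes, 27 of 98 and 83 of 102 were called, with 15 false calls. The simulated libraries were drawn independently, without series, shared animals or common shifts in the mix of cells. With 200 genes changed, the adjustment was also milder than in the astrocyte data, where 1 gene was called. These rates may therefore overstate what the astrocyte fit could find. Depth was 5623349 to 13110857 counts per library. Replicates are separate libraries, and where they share an animal p-values take them as independent. Same-numbered libraries of different groups correlated at -0.0267 to 0.36. Going by the names, libraries that share an animal carry different numbers, so these correlations do not measure that pairing. No pairing by animal was fitted. Alternatives were DESeq2 1.42.0, RLE factors, other filters and thresholds, robust empirical Bayes, a replicate block, series terms and leaving out libraries.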

Additional observations from a re-analysis of the deposited data

Results flagged for a closer look

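In 24 sets of 5 libraries, 6 genes in 4 groups, 2 held a library that stood far from the other 4. For normally distributed values chance flags about 1 in 20 such sets. Apoc1 stood at 1.568 CPM in sham microglia replicate 3 and at 0 in the other 4 sham microglia libraries. With 4 values at 0 any value above 0 is flagged, so that rate does not apply to this set. Clu stood at 25.31 CPM in sham microglia replicate 4 and between 15.35 and 17.8 CPM in the others, and this library also had the highest estimated share of astrocyte RNA among sham microglia, 1.16%.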

How the results depend on the processing

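The 6 genes were followed through 847 recomputed values, of which 778 kept their direction and their side of the threshold, 21 gained a call, 1 lost it (Apoe in microglia with robust empirical Bayes) and 47 changed sign, all 47 for values that were not called. The injury effect on Apoc1 in microglia, which the main fit did not test, is not among the 847. In microglia within the J-A series the log2 fold changes were -0.19 for Clu, -0.30 for Lrp1 and -0.12 for Scarb1. Apoe in astrocytes was 0.0205 with the replicate block and 0.018 with a term for replicates 4 and 5, and Lrp1 -0.0249 without those replicates. Apoe between cell types in FPI mice was -0.41 without the J-A libraries, -0.49 with a series term and -0.00617 without the astrocyte libraries of the 3 animals with both. The difference in effect was -0.0555, -0.19 and -0.11 for Lrp1 (without astrocyte replicates 4 and 5, without the J-A libraries and without those astrocyte libraries), -0.10 for Scarb1 without the J-A libraries and -0.64 for Apod without the microglia libraries of the 3 animals. The cause was not tested.

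With each library left out in turn, values ran from -0.18 to 0.64 for Apod, -0.0473 to 0.097 for Lrp1 and -0.00327 to 0.30 for Scarb1 in microglia, and from -0.18 to 0.0898 for Apoe, -0.26 to 0.0629 for Clu and -0.0139 to 0.16 for Lrp1 in astrocytes. Apoe between cell types in FPI mice ran from -0.17 to 0.36, and the difference in effect from -0.0706 to 0.72 for Apod, -0.0666 to 0.14 for Lrp1 and -0.0814 to 0.34 for Scarb1.

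Of all genes, 285 were called in microglia, 121 with all 20 libraries in 1 fit, 99 within the J-A series and 177 to 423 with 1 library left out, the lowest without sham or FPI microglia replicate 2. In astrocytes 1 was called, 39 with DESeq2, 53 in the fit of 20 libraries, 11 with the replicate block, 9 with every gene of at least 1 count, 6 with a term for replicates 4 and 5, 3 without those replicates, 0 with the strict filter, robust empirical Bayes, the stricter threshold or FPI replicates 2 and 5 summed, and 0 to 3 with 1 library left out. With at least 10 counts in every library 4551 genes were called between cell types in sham and 4467 in FPI mice, where fewer were tested, and 1 for the difference in effect. That difference gave 30 calls, 191 with DESeq2, 69 without the astrocyte libraries and 8 without the microglia libraries of those 3 animals, 47 without astrocyte replicates 4 and 5, and 21 to 48 with 1 library left out, the highest without FPI astrocytes replicate 3. Of the 20 pairs of genes 9 passed an adjusted p of 0.1, 3 by rank and 3 without the 2 farthest libraries. The series terms over 20 libraries and the fits without the J-A libraries or without astrocyte replicates 4 and 5 were chosen after seeing the data.

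With the replicate block, Apoe in microglia was 2.60 (adjusted p = 5.233e-05, edgeR) and its difference in effect was called (-2.54, adjusted p = 0.02648). No other gene of the 6 gained or lost a call with it, and the numbers do not pair animals. Depth limits Apoc1, at 14 counts over 5 sham microglia libraries.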
